A study of Chromochloris zofingiensis with 14 samples.

Results

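The genes described here are 41 nuclear gene models of the green alga Chromochloris zofingiensis chosen by names and descriptions of plastid protein import, membrane insertion and protein quality control. The choice also took in the plastid division gene family ARC6 and SEC61A, whose description names the endoplasmic reticulum. It took in CPSRP1 as well, described as a subunit of the signal recognition particle receptor without mention of the plastid. The 41 genes were taken from the 15274 nuclear genes of the deposited annotation, which holds 15369 genes in all. A gene was taken when its name began with TIC, TOC, OXA, ALB3, CPSRP, CPFTSY, FTSH, ARC6, CLP or CPN (35 genes), or when its description held the words translocase, translocon or insertion protein (6 further genes). The choice used names and descriptions and no length, intron or position.

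The series holds RNA-seq of 14 cultures of strain SAG 211-14, 1 library for each growth condition: low, medium and high light, darkness, medium without nitrogen, phosphorus, sulfur or iron, glucose, hydrogen peroxide, rose bengal in a shorter and a longer treatment, and anaerobic cultures in light and in darkness. Expression values were not analysed here, so no condition is compared with another. The annotation gives positions of coding segments and a score for each predicted gene model, and none of these values belongs to a sample. The question addressed is how the genes of this machinery differ among themselves in coding length, introns, copies and location. No test was run, because genes are not replicates of a condition; differences between groups are given as values beside those of all nuclear genes.

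Most proteins of a chloroplast are made in the cytosol as precursors with an N-terminal transit peptide, and they enter through the TOC complex of the outer envelope membrane and the TIC complex of the inner one. Inside, the chloroplast signal recognition particle (cpSRP) and ALB3 place light-harvesting proteins into the thylakoid membrane, while the Sec and twin-arginine (TAT) routes serve other thylakoid proteins. Chaperonins fold imported proteins, and the FtsH and Clp proteases remove damaged ones.

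The genes were long and rich in introns relative to the middle of the annotation. Their median coding length was 1458 bases, with a range of 219 to 3171, against 1041 bases over all nuclear genes and 1077 over the 461 other nuclear genes with a name. Of the 41 genes, 26 lay above the nuclear median. They held 5.05 ± 3.29 introns (SD, n = 41 genes), against 3.97 ± 4.40 over all nuclear genes and 4.86 ± 3.54 over the other named genes. The mean therefore lay close to that of other named genes. Per 1000 coding bases, the genes held 3.32 introns, all nuclear genes 2.74 and the other named genes 3.77. Only TIC20A, SEC61A and TATA had no intron, a share of 7.32%, against 17.7% of all nuclear genes and 6.72% of the other named genes. The share was 2.86% among the genes matched by name alone and 10.7% with 1 copy per family, so its side of the other named genes depended on the choice. Coding lengths come from models without untranslated regions.

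**Figure D1:**
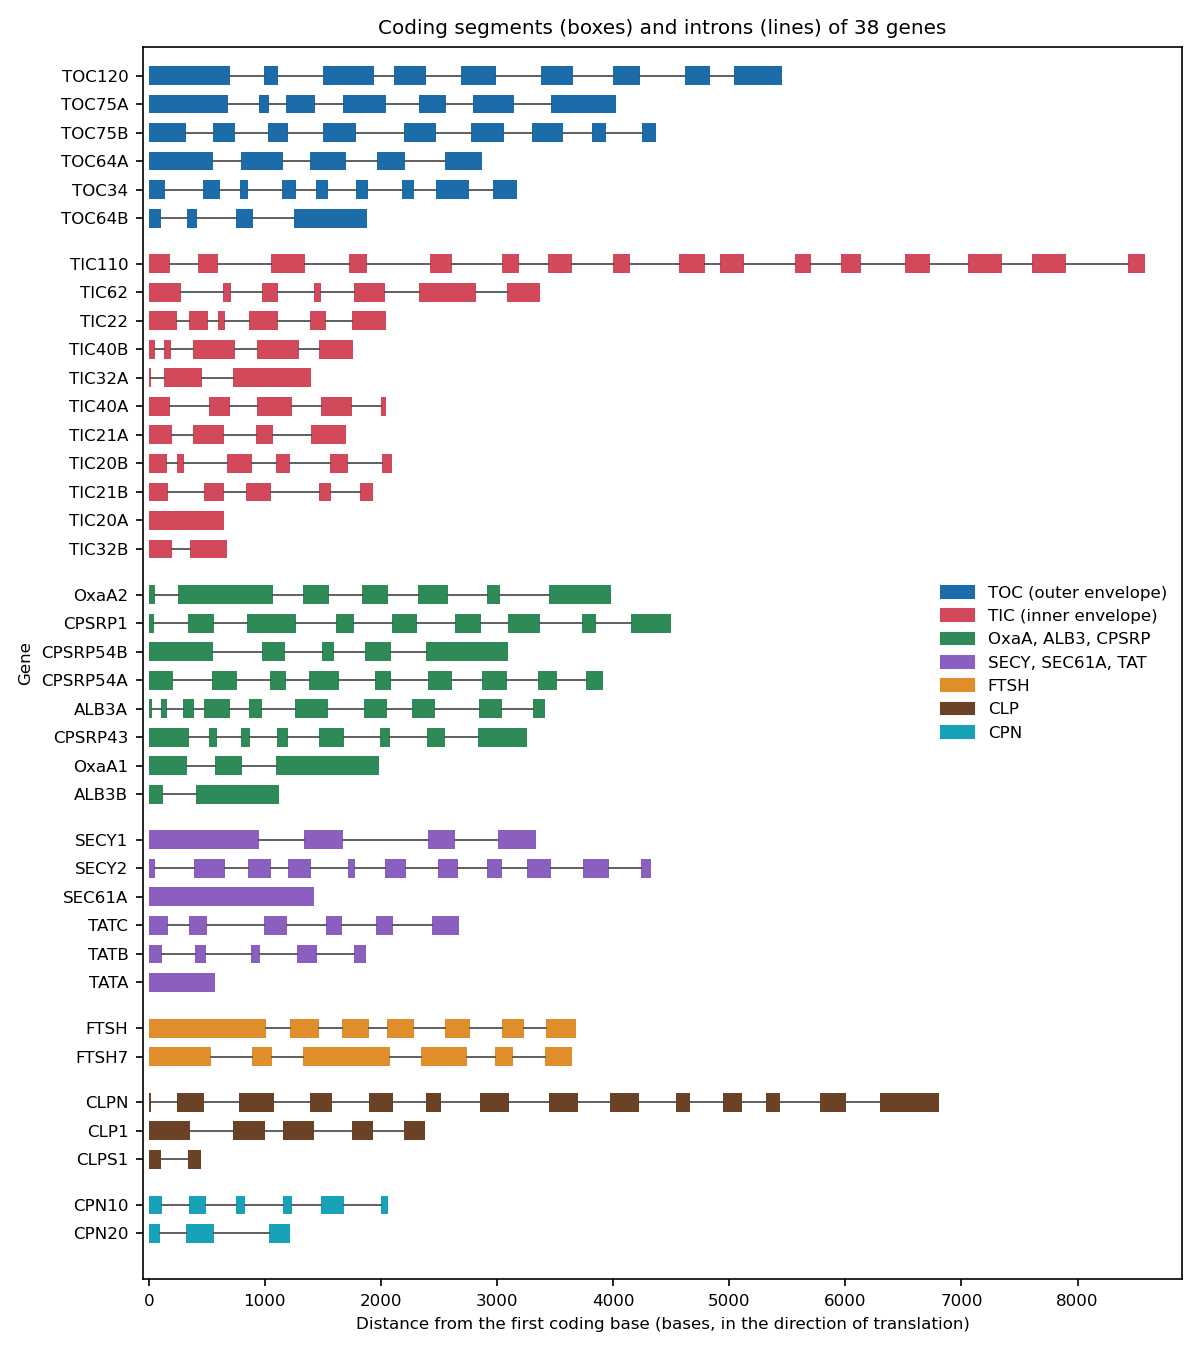
Coding segments (boxes) and introns (lines) of 38 of the 41 genes, drawn to scale from the first coding base in the direction of translation (bases), grouped by role and sorted by coding length within a group. TIC110 and CLPN have the longest spans and the most introns, and TIC20A, SEC61A and TATA each consist of a single box.

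The 6 TOC genes had a higher median coding length than the TIC genes. The TOC median was 1909.5 bases (969 to 2967) with 6.17 ± 2.23 introns (SD, n = 6 genes). The 11 TIC genes had a median of 984 bases (525 to 3171) with 4.45 ± 3.93 introns (SD, n = 11 genes). The ranges overlapped, since TIC110 was longer than every TOC gene and TOC64B was shorter than 6 TIC genes.

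TOC120 (Cz03g17170, chromosome 3, 1778492 to 1783949, plus strand) carries a name used in Chlamydomonas reinhardtii for a receptor GTPase related to plant Toc159. It had 2967 coding bases in 9 segments, the longest of the TOC genes. The other receptor GTPase, TOC34 (Cz09g17330, chromosome 9, 1794227 to 1797402, minus strand), also had 8 introns but 1281 coding bases. Its introns made up 59.7% of its span, against 45.6% in TOC120.

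The channel protein of the outer envelope, the β-barrel TOC75, had 2 gene models. TOC75A (Cz01g30030, chromosome 1, 3009869 to 3013893, minus strand) had 2532 coding bases in 7 segments. TOC75B (Cz04g11310, chromosome 4, 1197009 to 1201376, plus strand) had 2034 coding bases in 9 segments. The shorter copy was thus the one with more introns. TOC75A opened with a coding segment of 681 bases and TOC75B with one of 321 bases. TOC64, known in land plants as a docking protein for chaperone-bound precursors, was also present as a long and a short model. TOC64A (Cz06g09170, chromosome 6, 978043 to 980909, minus strand) had 1785 coding bases, and TOC64B (Cz07g13240, chromosome 7, 1394483 to 1396366, plus strand) had 969. Of the coding bases of TOC64B, 65.0% lay in its last segment of 630 bases.

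TIC110 (Cz11g07180, chromosome 11, 774888 to 783464, minus strand), a scaffold of the inner envelope that faces the stroma, was the longest of the 41 genes and had the most introns. Its 3171 coding bases lay in 16 segments of 138 to 293 bases, so no segment held more than 9.24% of the coding region. Introns of 127 to 546 bases filled 63.0% of its span of 8577 bases. Fewer introns than its 15 were counted in 97.6% of nuclear genes.

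The other TIC genes were shorter. TIC62 (Cz18g10170, chromosome 18, 1080198 to 1083569), which like TIC32 belongs to the dehydrogenase-like proteins linked to redox control of import in land plants, had 1593 coding bases and 6 introns. The co-chaperone gene TIC40 had copies of 984 bases (TIC40A, Cz02g19150) and 1137 bases (TIC40B, Cz02g17170), each with 4 introns. The score of TIC40B, 0.23, was the lowest of the TIC genes, and that of TIC40A was 1. The intermembrane space protein gene TIC22 (Cz07g31050) had 1149 coding bases and 5 introns. TIC20 and TIC21, membrane proteins proposed as parts of the channel, had copies of 648 to 921 bases. TIC20A (Cz06g20080, chromosome 6, 2020068 to 2020715) had no intron, whereas TIC20B (Cz12g08220, chromosome 12, 885437 to 887533) had 5 introns that filled 62.5% of its span. TIC32A (Cz04g30040), 1 of the 2 manually made models among the 41, opened with a coding segment of 16 bases. TIC32B (Cz13g03160) had 525 coding bases, the shortest of the TIC genes, and a single intron of 150 bases.

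**Figure D2:**
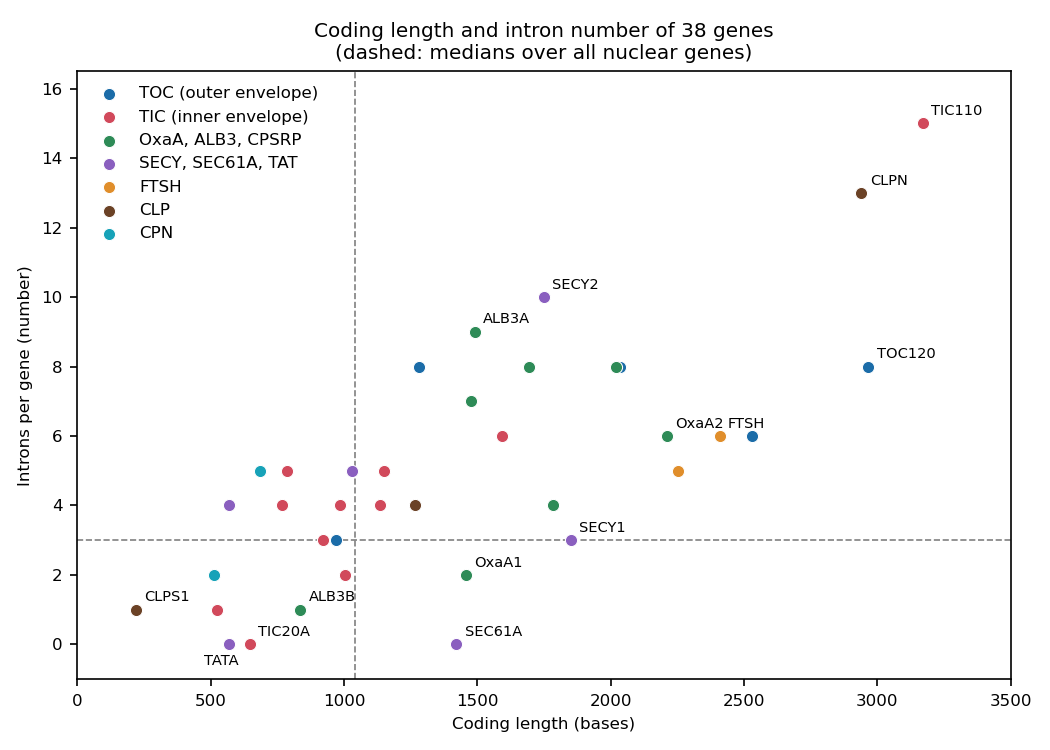
Coding length (bases) against the number of introns, 1 point for each of 38 of the 41 genes, coloured by group; dashed lines mark the medians over all nuclear genes, 1041 bases and 3 introns. TIC110 and CLPN stand at the upper right with 15 and 13 introns, SECY2 and ALB3A lie above genes of like length, and SEC61A has 1422 bases without an intron.

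The group of genes for insertion into membranes held 8, among them CPSRP1, which may not be a plastid gene. They had a median of 1593 coding bases (837 to 2211) and 5.63 ± 2.97 introns (SD, n = 8 genes). cpSRP54, the GTPase subunit of the particle, had a pair of models. CPSRP54A (Cz02g05130, chromosome 2, 555336 to 559248, plus strand) had 1695 coding bases and 8 introns. CPSRP54B (Cz08g20150, chromosome 8, 2049751 to 2052846, minus strand) had 1785 coding bases and 4 introns. The lengths thus differed by 90 bases while the intron numbers differed by 4. The scores were 1 for CPSRP54A and 0.37 for CPSRP54B. CPSRP43 (Cz10g07010, chromosome 10, 703908 to 707168), the subunit that binds light-harvesting proteins in plants and algae, was the other manually made model and had 1476 coding bases and 7 introns.

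ALB3 is the thylakoid member of a family of insertion proteins that also contains the mitochondrial Oxa1 and the bacterial YidC. Here ALB3A (Cz05g17260, chromosome 5, 1797310 to 1800725, plus strand) had 1491 coding bases in 10 segments, the first 3 of them of 29, 50 and 97 bases. ALB3B (Cz05g36130, chromosome 5, 3643156 to 3644276, plus strand) had 837 coding bases in 2 segments, of which the second held 85.2%. OxaA1 (Cz03g01150, chromosome 3) had 1458 coding bases and 2 introns, and OxaA2 (Cz01g09150, chromosome 1) had 2211 coding bases and 6. In both families the longer copy was the one with more introns. The scores were 0.45 for OxaA1 and 1 for OxaA2. The annotation does not say in which membrane the OxaA proteins sit.

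CPSRP1 (Cz05g34010, chromosome 5, 3400730 to 3405224, plus strand) was caught by its name, but its description calls it the alpha subunit of the signal recognition particle receptor, a protein of the endoplasmic reticulum in other eukaryotes. It had 2019 coding bases, 8 introns and a score of 0.37. The gene described as the receptor of the chloroplast particle is named FTSY (Cz12g26150, chromosome 12, 2651562 to 2654609), which the rule did not catch. FTSY had 1095 coding bases, 6 introns and a score of 0.86. A wider list of words for Sec, TAT, signal recognition, chaperone and protease genes was also searched among the named nuclear genes. FTSY was the only further gene found, by the words signal recognition in its description. Of the 15274 nuclear genes, 502 have a name, and gene codes were matched in capitals only. The search therefore does not show that other such genes are absent.

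The translocases caught by description alone were 6 genes. Apart from that of SEC61A, their descriptions name no compartment. SECY, the channel protein of the Sec route, had models of nearly equal length with very different intron numbers. SECY1 (Cz04g37160, chromosome 4, 3795951 to 3799283, minus strand) had 1851 coding bases and 3 introns, of which the longest, 734 bases, was the longest intron of all 41 genes. SECY2 (Cz05g25080, chromosome 5, 2531791 to 2536114, minus strand) had 1749 coding bases and 10 introns. Its score of 0.11 was the lowest of the 39 scored genes. SEC61A (Cz01g29020, chromosome 1, 2906005 to 2907426), whose description names the endoplasmic reticulum and not the plastid, had 1422 coding bases without an intron.

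In the TAT route, TATC, which binds precursors together with TATB, had 1032 coding bases and 5 introns (Cz10g05030, chromosome 10, 511747 to 514418). TATA and TATB had the same coding length of 570 bases and differed in structure. TATB (Cz09g27050, chromosome 9, 2718261 to 2720132) had 4 introns that filled 69.6% of its span, the highest share of the 41 genes. TATA (UNPLg00323) had no intron and was the only gene of the 41 on an unplaced contig.

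Among the quality control genes, FTSH (Cz02g25060, chromosome 2, 2523543 to 2527222) and FTSH7 (Cz05g33210, chromosome 5, 3396267 to 3399908) encode ATP-dependent zinc metalloproteases. They had 2409 and 2253 coding bases with 6 and 5 introns. FTSH opened with a segment of 1014 bases, the longest opening segment among the genes with introns. The plastid genome carries its own ftsH gene (CzCPg00050), annotated as 10221 coding bases without an intron, 4.24 times the coding length of FTSH and 4.54 times that of FTSH7. The Clp genes spanned nearly the whole range of the set. CLPN (Cz06g27180, chromosome 6, 2784434 to 2791242) had 2940 coding bases and 13 introns, and its first coding segment had 19 bases. CLP1 (Cz03g18040) had 1266 coding bases and 4 introns. CLPS1 (Cz03g30050, chromosome 3, 3021686 to 3022138), named like the bacterial adaptor ClpS that hands substrates to the protease, had 219 coding bases, the shortest of the 41, and 1 intron. Shorter coding regions were found in 1.26% of nuclear genes. The plastid clpP (CzCPg01260), for a proteolytic subunit, had 1596 coding bases without an intron. The descriptions of FTSH, FTSH7 and CLP1 name no compartment, and CLPS1 has no description. Whether these nuclear genes serve the plastid was not tested.

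The co-chaperonins CPN10 (Cz03g10020) and CPN20 (Cz10g21030), which cap the chaperonin barrel, ran against the order of their names. CPN10 had 684 coding bases and 5 introns, and CPN20 had 513 coding bases and 2 introns.

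The names of 22 genes contain the mass in kDa of the protein for which the family was named. A mass was estimated from each coding length as 0.11 kDa per residue, with 1 codon taken off for the stop. This estimate includes any transit peptide. It was above the named mass in 15 genes and below it in 7, with a median ratio of 1.15, and it lay within 1.5 times of the name in 17 genes. The estimate was 116.2 kDa for TIC110, 108.7 kDa for TOC120 and 74.5 kDa for TOC75B. CPN10 came to 25.0 kDa, 2.50 times its name, TIC22 to 42.0 kDa, 1.91 times, and TIC21A to 33.7 kDa, 1.60 times. The estimates farthest below the name were those of TOC64B, 35.4 kDa or 0.553 times, and TIC32B, 19.1 kDa or 0.598 times. In both families the other copy lay near the name, with ratios of 1.02 for TOC64A and 1.15 for TIC32A.

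**Figure D3:**
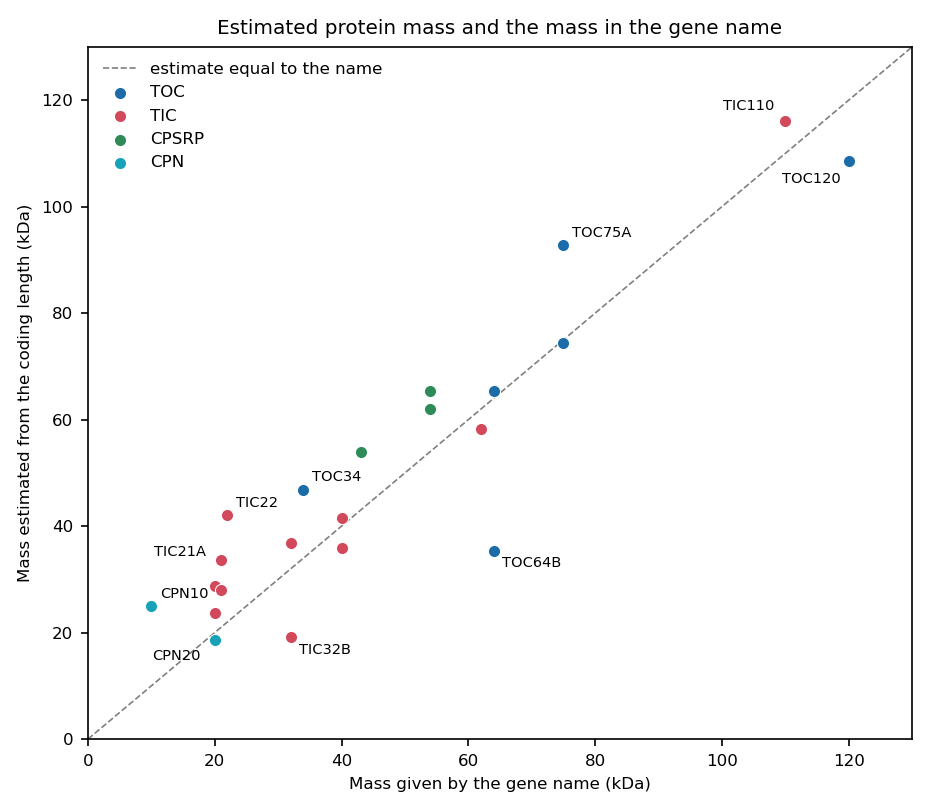
Protein mass estimated from the coding length (kDa) against the mass in the gene name (kDa) for the 22 genes whose name gives one; the dashed line marks equality. CPN10, TIC22 and TIC21A lie highest above the line relative to their names, and TOC64B and TIC32B lie farthest below it.

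By shared name, 22 of the 41 genes formed 11 families of 2 copies. The share of other named genes with a copy was not analysed here, so whether 22 is many is unknown. Sequence identity between copies was not analysed here, so family membership rests on the names. In the 11 families of 2 copies the longer copy had 1.05 to 1.91 times the coding length of the shorter one, with a median of 1.21. In 4 of them, TIC32, TOC64, ALB3 and OxaA, the ratio was above 1.5. The longer copy had more introns in 6 families and fewer in 4, and in TIC40 the numbers were equal. The largest differences in intron number were 8 in ALB3, 7 in SECY and 5 in TIC20. Coding segments of identical length were counted between copies only, without a rate for unrelated genes. FTSH and FTSH7 shared a segment length of 231 bases, which TOC75A and TOC120 also had. The other 10 of these 11 pairs shared none.

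**Figure D4:**
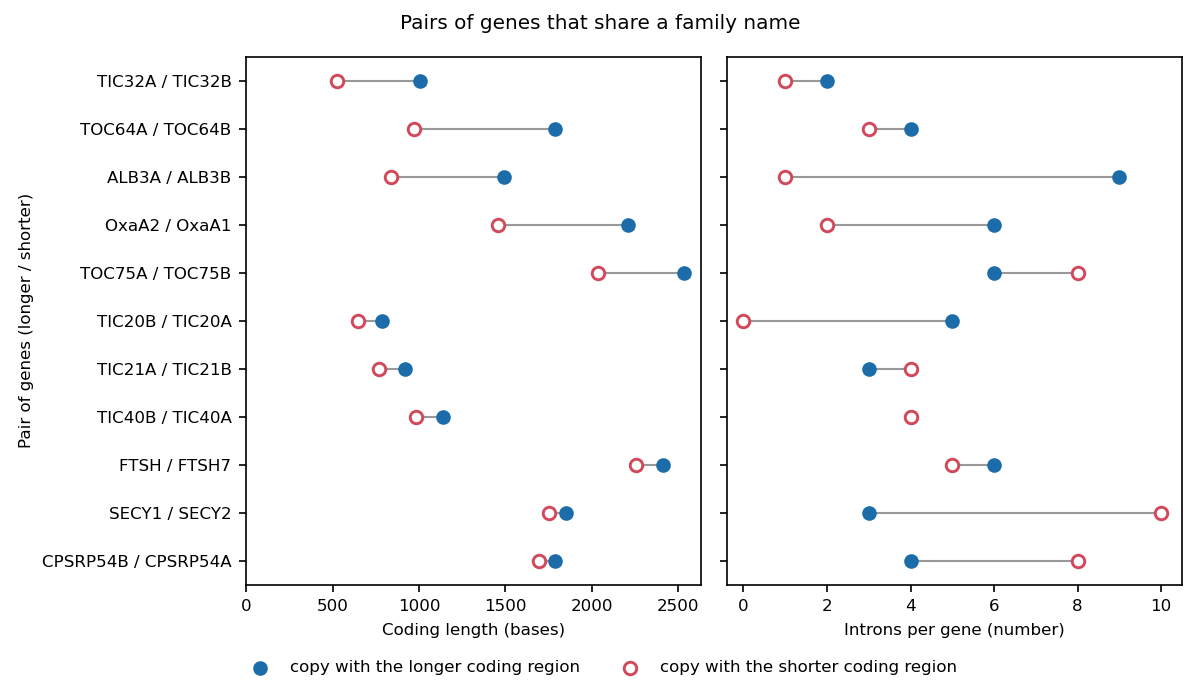
Coding length (bases, left) and number of introns (right) of the 11 pairs of genes that share a family name, with the copy of longer coding region filled and the shorter one open, sorted by length ratio. TIC32, TOC64, ALB3 and OxaA have the highest length ratios, whereas SECY and CPSRP54 are close in length and differ by 7 and 4 introns.

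The 207 introns of the 41 genes had a median length of 274 bases (77 to 734), against 260 bases over all nuclear introns and 273 over those of the other named genes. Introns of 100 bases or fewer numbered 6, or 2.90%, against 4.46% of all nuclear introns and 5.72% of those of the other named genes. The shortest, 77 bases, was in TIC40B, and ALB3A had introns of 79 and 82 bases. Introns of 500 bases or more numbered 3, or 1.45%, against 1.85% and 2.41%, with 2 in TIC110 and 1 in SECY1. An intron is in phase 0 when it falls between codons. This was so for 127 introns, 61.4%, against 52.9% of all nuclear introns and 53.5% of those of the other named genes. Phase 1 held 21.3% and phase 2 held 17.4%, against 25.0% and 22.2% of all nuclear introns. In CPN10, FTSH7, TIC22, TIC21A and TOC64B every intron was in phase 0, which makes 5 of the 32 genes with 3 or more introns, 15.6%. The share among all nuclear genes with 3 or more introns was 5.76%, and among the other named genes it was so for 13 of 354. FTSH had 5 of its 6 introns in phase 0.

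When each coding region was divided into 3 equal stretches, the 5′ stretch held 32.4% of the introns of the 41 genes, the middle one 41.1% and the 3′ one 26.6%. Over all nuclear genes these shares were 40.7%, 35.4% and 23.9%, and over the other named genes 37.6%, 36.4% and 26.0%. The 5′ stretch held the most introns in both, and the middle one did in the 41 genes. The first intron came after a median of 195 coding bases, against 152 over all nuclear genes and 160.5 over the other named genes. It came within the first 50 coding bases in 4 of the 38 genes with introns, 10.5%, against 12.0% of all nuclear genes and 8.14% of the other named genes with introns. These 4 were TIC32A, CLPN, ALB3A and CPSRP1, with 16, 19, 29 and 44 bases before the first intron.

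The 40 genes on chromosomes were spread over 15 of the 19 chromosomes. Chromosomes 3 and 5 held 5 each, chromosomes 1, 2 and 6 held 4 each, and chromosomes 14, 15, 17 and 19 held none. Those without any carry 663, 541, 270 and 284 nuclear genes. Chromosome 5 held 5.02 per 1000 of its genes and chromosome 3 held 4.63, against 2.68 per 1000 over all nuclear genes. Chromosome 18 reached 4.29 per 1000 with 1 gene. Whether these counts depart from an even spread was not tested. The genes on chromosome 5 were ALB3A, ALB3B, SECY2, FTSH7 and CPSRP1. No TIC or TOC gene lay there. Copies of a family lay on different chromosomes in 9 of the 11 families of 2. The exceptions were TIC40, whose copies lay 191216 bases apart on chromosome 2 with 47 genes between them, and ALB3, with both copies on chromosome 5. How often pairs of unrelated genes lie on different chromosomes was not analysed here. The outer 10% at either end of a chromosome held 4 of the 40, or 10%, against 20.3% of all chromosomal genes and 20.6% of the other named ones. These were OxaA1, TIC22, SECY1 and ALB3B.

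Most genes of the set lay far from each other. There were 25 pairs of successive genes of the set on the same chromosome, with a median gap of 763718 bases. The gap was at most 50000 bases in 3 of them, and 1 pair were direct neighbours. This pair was the protease gene FTSH7 and CPSRP1 on chromosome 5. They pointed away from each other with 821 bases between their coding regions. Shorter distances were found in 41.1% of the divergent neighbours of nuclear genes. CLP1 lay 28891 bases from TOC120 on chromosome 3 with 8 genes between them. How often genes of other sets lie this close was not analysed here.

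The gene upstream pointed away in 26 of the 41 genes, 63.4%, against 51.5% of nuclear genes with an upstream neighbour and 54.9% of the other named genes. Among the insertion genes, CPSRP1 included, this was so for 7 of 8, CPSRP43 being the exception. It was so for 7 of 11 TIC, 3 of 6 TOC, 2 of 2 FTSH, 1 of 2 CPN and 0 of 3 CLP genes. Among the genes caught by description alone it was so for 4 of 6. FTSH7 and CPSRP1 are each counted for the gap between them. Over all 41 genes, the downstream neighbour faced the gene in 23, 56.1%. This lay above the 51.5% of all nuclear genes and below the 58.7% of the other named genes. Genes with a divergent neighbour upstream and a convergent one downstream numbered 17, 41.5%, against 26.9% of nuclear genes and 33.5% of the other named genes with neighbours on both sides. The median distance to the nearer neighbour was 605 bases, against 642 over all nuclear genes and 736 over the other named genes. With 1 copy per family it was 689.5 bases, above the median of all nuclear genes. A direct neighbour had a name in 7 of the 41 genes, among them FTSH7 and CPSRP1, which neighbour each other. The same share over all nuclear genes was not analysed here. Upstream of OxaA2 lay FABZ, at 479 bases and divergent. TIC40B lay 1268 bases from FNR on the same strand, and TIC21A lay 535 bases from LHC10, also on the same strand. CPN20 followed HCF136 on the same strand at 1301 bases.

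The scores of the gene models had a median of 0.91 over the 39 scored genes, against 0.78 over all scored nuclear genes and 0.84 over the other named ones. A score below 0.5 was given to 6 of them, 15.4%, against 19.8% of all nuclear genes and 14.7% of the other named ones. Besides SECY2, TIC40B, CPSRP54B and CPSRP1, these were CPN20 with 0.36 and OxaA1 with 0.45. A score of 1 was given to 12, 30.8%, against 16.7% and 20.7%. The file does not state what the score measures. The coding length was a multiple of 3 in all 41 genes.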

How the data were processed

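The deposited data were a GFF3 gene annotation of the whole series, with no value of any sample. Per the file headers and source column, its start and end positions are base numbers counted from 1, and the authors' gene models came from AUGUSTUS or manual work. What the deposited score measures is not defined in the file. The genome build is not given in the sources used here, and positions refer to the sequences listed in the file header. Read depth was not analysed here. STAR 2.4.0j and Cuffdiff 2.2.1 are listed, with no role, per the submitters' processing notes.

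Genes were read with Python 3.11.15 and pandas 2.3.3. Nuclear genes are those on the 19 chromosomes and the unplaced contigs. Introns are gaps between coding segments, and intron phase, computed from segment lengths, equalled the phase field in 207 of 207 introns of the genes described. The reading step was tested on simulated data. The version tag was taken off names before matching. Families were formed from names by taking off the copy letter or number. Of the 41 genes, 38 are shown; the values of the others enter counts and medians and are not reported here singly. Genes outside the set are named as direct neighbours or from the wider word list, and the plastid ftsH and clpP were added as relatives by name. The genes and lists were chosen with earlier results of these data known. The alternatives varied the choice of genes, score, frame and sequences.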

Additional observations from a re-analysis of the deposited data

How the results depend on the processing

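The alternatives gave 76 values, of which 0 moved beyond 1 SD over the genes (for the share without introns, the exact 95% binomial interval of 1.54% to 19.9%; for the number of chromosomes, 1.5 times). These limits are wide, so the ranges are given. Over 10 alternatives, 4 of them chosen after the data were examined, the median coding length ran from 1351.5 to 1476 bases, the mean intron number from 4.80 to 5.29, the median intron number from 4.5 to 5, the median intron length from 271 to 281 bases, the share without introns from 2.86% to 10.7%, the number of chromosomes from 12 to 15 and the median distance to the nearer neighbour from 577 to 689.5 bases. That distance lay above the nuclear median of 642 bases with 1 copy per family and below it in the other 9 alternatives. Leaving out genes whose descriptions name mitochondria, cytosol or nucleus removed no gene. Requiring a coding length that is a multiple of 3 removed none of the 41 either, so the values of these alternatives could not move. Over all nuclear genes, the median coding length ran from 1026 to 1098 bases and the mean intron number from 3.87 to 4.87, the latter over named genes only. No paired analysis was possible because each condition had 1 library and no value belonged to a sample. Lengths and introns rest on gene models that are mostly predicted.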
